A study of Mus musculus with 19 samples.

Results

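Early cultures of mouse T helper 2 (Th2) cells in which the transcription factor gene Bcl11b had been deleted were compared with wild-type (WT) cultures of the same stage. The libraries were chosen by their labels, 2 titled as early Bcl11b knockout (KO) and 2 as early Bcl11b WT, which are 4 of the 16 RNA libraries and of the 19 samples in the series. The series also holds late cultures of the same design, a parallel experiment on Gata3 with early and late stages, and 3 chromatin immunoprecipitation samples from late WT cells. In the early cultures, naive CD4 T cells from mice with a floxed Bcl11b gene and a CreERT2 recombinase spent 4 days in Th2-polarising medium. The KO cultures received 4-hydroxytamoxifen (4-OHT), which activates this recombinase, and the WT cultures carried the same floxed gene and recombinase without the drug. The effect of the drug and that of the deletion therefore cannot be told apart. For the late cultures, 4 days of polarisation and 1 day in IL-2 alone came before a second polarisation of 4 days, when the drug was given. The promoter that drives the recombinase, and whether the 2 libraries of a group came from separate animals or cultures, are unstated in the labels, so all p-values measure the spread between these libraries, which may be technical. The culture of the Gata3 experiment is also unstated.

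Bcl11b is a zinc-finger protein that commits developing thymocytes to the T cell lineage and stays expressed in mature T cells, where it represses genes of other lineages and works with chromatin complexes such as NuRD and BAF. Th2 cells are CD4 T cells that depend on the factor Gata3 and secrete interleukins 4, 5 and 13 against worms and in allergy. The comparison asks which genes differ when Bcl11b is deleted while naive cells are becoming Th2 cells.

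The 2 early WT libraries stood apart from all others before any gene was compared. They held 4972597 and 4687552 gene reads, against 9864360 and 9148566 in early KO. Odorant and vomeronasal receptor genes, which belong to sensory neurons, had 3.73 and 4.82 reads per kb of transcript in early WT, and 0.502 and 0.286 in early KO. At these rates 4.67% and 6.39% of the WT gene reads, and 0.317% and 0.194% of the KO gene reads, would be background. Counts of genes are therefore also given after this rate, times transcript length, was subtracted from every count, and levels beside the early WT libraries of the Gata3 experiment, which lack this background. Those libraries are no matched control: Xist, the RNA of the inactive X chromosome, was at 699.6 and 589 CPM (counts relative to the TMM-scaled gene reads of the library) in them and at most 5.87 CPM in the 4 libraries compared, while the Y-linked gene Ddx3y was at 0.136 and 0.125 CPM and between 41.5 and 58 CPM.

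**Figure D1:**
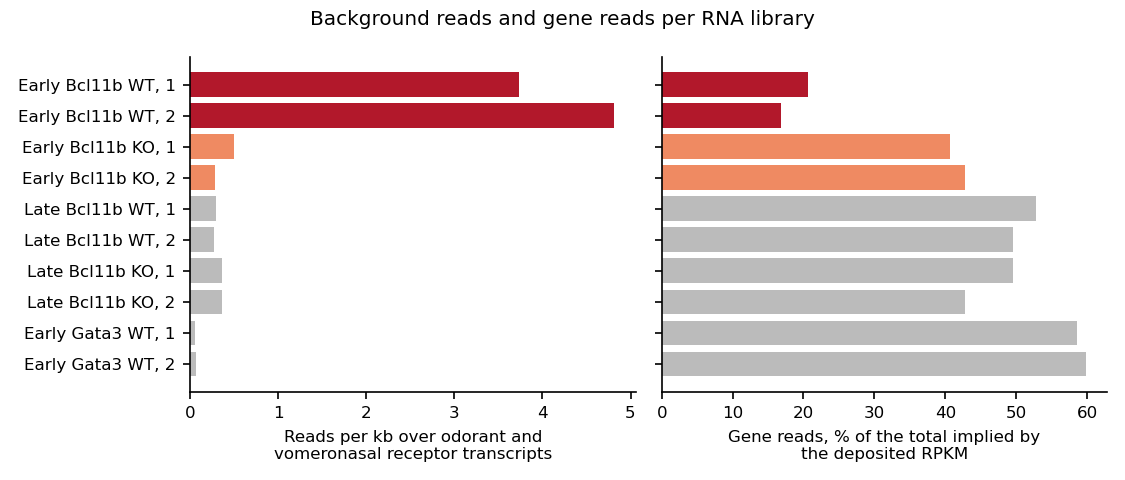
Reads per kb over odorant and vomeronasal receptor transcripts (left) and gene reads as a percentage of the read total implied by the deposited RPKM (right), 1 bar per library of the Bcl11b experiment and of the early WT group of the Gata3 experiment. Early WT libraries are dark red and early KO libraries are orange. The early WT libraries had 3.73 and 4.82 receptor reads per kb and gene read shares of 20.7% and 16.9%.

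The deleted gene kept part of its reads. Bcl11b was at 126 and 128 CPM in the WT libraries and at 66.5 and 54.2 CPM in the KO libraries, and both KO libraries lay below both WT libraries. The log2 fold change, given with its standard error (SE) throughout, was -1.08 ± 0.28 (adjusted p = 0.0232). Unless another test is named, each adjusted p is from the quasi-likelihood test of edgeR, adjusted by Benjamini-Hochberg over the 10873 genes tested. Genes with an adjusted p under 0.05 are called. The call was lost without KO replicate 2 or WT replicate 1, with adjusted p up to 0.0849. The deposited RPKM values of Bcl11b did not separate the groups, at 3.17 and 2.78 in WT and 3.32 and 2.89 in KO. Their divisor holds all reads, of which gene reads are a smaller part in WT. The labels do not name the floxed exons, and reads outside the deleted part check no deletion. Gata3 stood at 537 and 564 CPM in WT and 702 and 716 CPM in KO and was not called (0.37 ± 0.15, adjusted p = 0.119).

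Markers of T cells were present in all 4 libraries. Summed over 6 T cell markers the level was 3987 and 3376 CPM in WT and 5179 and 4732 CPM in KO, and the 8 Th2 markers summed to 3389 and 2777 against 3502 and 3579.7 CPM. Il4, the signature Th2 cytokine gene, was at 39.2 and 26.2 CPM in WT and 32 and 47.1 CPM in KO. Markers of other cells were low: the 5 B cell markers summed to between 86.8 and 131 CPM over the 4 libraries, and the macrophage and dendritic cell markers to 33.9 and 58.5 CPM in WT and 19.5 and 16.7 CPM in KO. Several of these moved with the groups. The fibroblast and epithelial markers summed to 55.7 and 80.9 CPM in WT and 7.61 and 14.4 CPM in KO, and Epcam, an epithelial adhesion molecule, fell (-1.82 ± 0.53). The CD8 T cell markers summed to 42.9 and 42.3 CPM in WT and 99.3 and 83.2 CPM in KO, and Cd8b1, a CD8 chain, rose (1.44 ± 0.46). The haemoglobin gene Hba-a1 was at 2.09 and 0.629 CPM in WT and 10.0 and 10.0 CPM in KO and rose (2.87 ± 0.84). The calls of Epcam, Cd8b1 and Hba-a1 were lost after background subtraction. Csf1r, the macrophage growth factor receptor, had 9.42 and 40.7 CPM in WT and no read in KO, and made up much of the WT sum of its list. Of the 4 macrophage and dendritic cell markers tested, 3 had positive log2 fold changes and 1 a negative one (median 0.20), and none was called. The neutrophil enzyme gene Mpo was at 18.4 and 23.3 CPM in WT and 0.417 and 0 CPM in KO, while S100a8, S100a9 and Elane had no read in either group. Cpa3, the mast cell carboxypeptidase, was at 1.05 and 3.35 CPM in WT and 45.3 and 42 CPM in KO, whereas the basophil and mast cell genes Mcpt8, Fcer1a and Ms4a2 were at or below 0.629 CPM in each library. The 6 mast cell and basophil markers, with Kit and Hdc, summed to 7.96 and 14.7 CPM in WT and 46.7 and 42.9 CPM in KO. Most of the KO sum was Cpa3 and most of the WT sum was other members, so Cpa3 went the other way from the rest. In bulk RNA, fewer cells of a type and less RNA per cell cannot be told apart, and the part of other cells in the results below was not tested.

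Of the 10873 genes tested, 1194 rose in KO (11%) and 1097 fell (10.1%), 21.1% in all. The counts of list members below are to be read beside these shares. After background subtraction 1101 rose (10.1%) and 1044 fell (9.6%), and 985 of the rises and 951 of the falls were called in both. Calls depended on single libraries: 1272 of the 2291 were lost without at least 1 of the 4 early libraries, either by the test or because the gene no longer passed the filter on low values (an RPKM of 1 or more in 2 or more of 8 libraries). Without any 1 of the late libraries, which share the estimate of spread, 765 to 782 rose and 779 to 873 fell. Of the rises, 816 had KO libraries averaging above the early WT libraries of the Gata3 experiment, and of the falls, 675 averaged below them. A gene is called stable below if it was called in the full counts, in the background-subtracted counts and without each early library in turn, lay on the same side of the Gata3-experiment WT libraries (by the mean, without a call), reached a mean of 20 CPM in the higher group and had groups that did not overlap. By this rule 357 rises (3.28%) and 272 falls (2.5%) were stable. Against the Gata3-experiment WT, 291 of these rises and 183 of these falls were also called. Stable genes named here that were not called against it are Aen, Anxa2, Bcl2l1, Bst2, C3, Cdc25b, Dhx58, Edem1, Ero1l, Fli1, H2-Ab1, H2-D1, Havcr2, Irgm1, Nfkbia, P4ha2, Pfkp, Pgm2, S100a4, Selenbp1, Sesn2, Slc7a5, Stat5b and Zbp1. Leaving out 1 late library ended the call of 2 of the 629 stable genes. Their median log2 fold changes were 1.67 and -1.73 in the full counts and 1.64 and -1.78 after background subtraction. Groups that do not overlap are common with 2 libraries a side, and 5863 genes (53.9%) had them. So did 1193 of the 1194 rises and 1092 of the 1097 falls, and remarks below that groups did not overlap add little to a call. On the deposited RPKM scale, whose divisor holds all reads, limma on log2(RPKM + 1) gave 6570 higher and 338 lower genes, with the median of all genes moved by 0.83; with the libraries scaled to 1 RPKM sum, a setting chosen after seeing the data, it gave 930 and 1182. Changes are reported relative to the median of all genes, as TMM scaling sets it. In simulated counts for this comparison 28% of 2-fold and 84% of 4-fold changes were recovered, so many smaller differences would be missed.

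**Figure D2:**
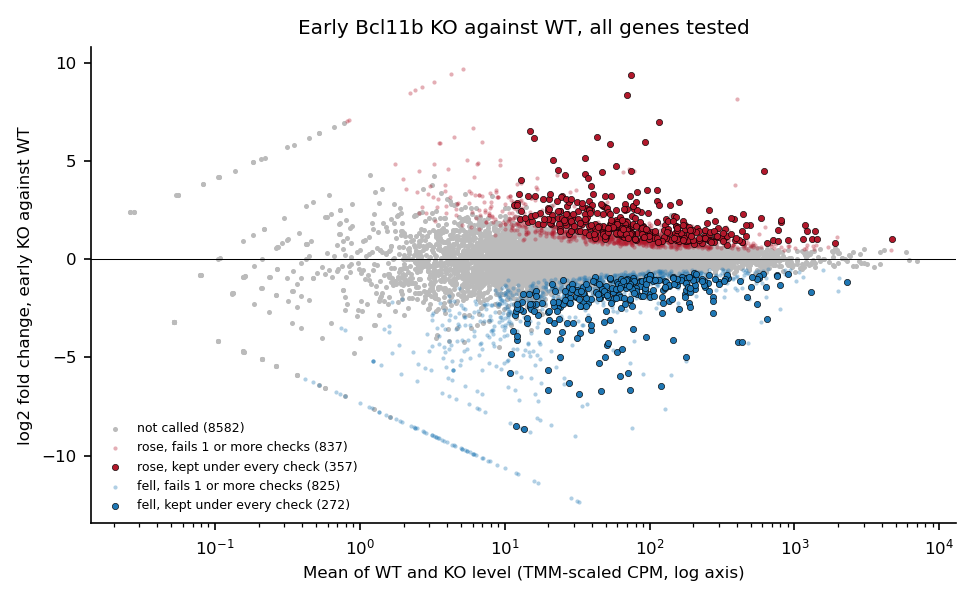
Log2 fold change of early KO against WT (vertical axis) against the mean level in TMM-scaled CPM (horizontal log axis), 1 point per gene. Outlined points are the 357 rises and 272 falls that are stable by the rule above; most of the extreme folds at low level are pale points that fail 1 or more parts of the rule.

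The genes of the largest stable rises have different functions. Il9, the cytokine gene that defines Th9 cells and acts on mast cells, had 2 reads over both WT libraries and 136 and 162 CPM in KO, a ratio of 710.4 (95% counting interval 196 to 5869). Sprr1a, a precursor of the cornified envelope of skin, went from 0 and 0.838 to 120.4 and 158 CPM (8.33 ± 0.68, adjusted p = 9.29e-05). Both genes were near 0 in the early WT libraries of the Gata3 experiment as well, at 1.76 and 6.14 and 0 and 0 CPM. Fcer1g, the shared signalling chain of Fc receptors, rose from 0.209 and 2.10 to 104 and 68.4 CPM (6.21 ± 0.67, adjusted p = 0.000323). Tnip3, an inhibitor of NF-kappaB signalling, rose from 2 and 2 reads, 0.419 and 0.419 CPM, to 43.8 and 18.6 CPM. The KO libraries differed for this gene by more than 2-fold, and both lay above the WT libraries, which the rule requires. Serpine2, an inhibitor of serine proteases, rose from 6.91 and 1.68 to 105 and 122 CPM (4.72 ± 0.45), and Slc2a6, a sugar transporter of the lysosome, from 1.88 and 10.9 to 128 and 157 CPM (4.47 ± 0.58). Sulf2, which trims sulfate from heparan sulfate, had 5.65 and 2.72 CPM in WT and 76.5 and 104 in KO, and the LIM-domain gene Crip2 3.77 and 2.93 CPM in WT and 74.5 and 62.8 in KO. P2rx1, an ATP-gated ion channel, rose from 0 and 2.51 to 46 and 37.8 CPM and rose in late KO as well. Serpina3g rose from 0.419 and 3.14 to 261 and 196 CPM and is uncertain because near-identical copies can share its reads.

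The largest stable falls had WT levels far above background. Matk, a kinase that restrains Src-family kinases, fell from 89.8 and 93.9 to 0.834 and 0.882 CPM (-6.72 ± 0.64, adjusted p = 0.000177). Cxcr2, a receptor of neutrophil-attracting chemokines, fell from 79.6 and 49.2 to 0.938 and 0.11 CPM, and Tgfb3, a transforming growth factor, from 102 and 90.1 to 4.59 and 1.43 CPM (-4.98 ± 0.71). The 2 KO libraries lay far below both WT libraries in each of these, and close together only for Matk. Cyp2s1, a cytochrome P450, went from 227 and 247 to 2.08 and 3.31 CPM (-6.46 ± 0.39) and Selenbp1, a selenium-binding protein, from 408 and 282 to 8.34 and 13.6 CPM (-4.98 ± 0.51). In the Gata3-experiment WT libraries these were at 22 and 15.9 and 36.6 and 6.76 CPM, nearer the KO libraries, so the size of the fall depends on which WT libraries serve as control. The same holds for Cxcr2 (3.39 and 1.75 CPM there), but not for Tgfb3 (112 and 53.4 CPM). Matk (16.3 and 5.01 CPM) lay between the groups there. Aplp1, an amyloid precursor-like protein, fell from 37.7 and 40.4 to 0.104 and 1.43 CPM, and Mboat2, an acyltransferase of phospholipids, from 44.6 and 65 to 1.15 and 0.221 CPM. Aldh3b2 and Zbtb7c each had 1 read in KO and WT to KO ratios of 444 (95% counting interval 78.8 to 17601) and 502 (95% counting interval 89.4 to 19917); their WT libraries differed from each other by more than 3-fold. H2-Q10 and Stfa2 belong to families of near-identical genes, and their falls (-5.28 ± 0.62 and -5.82 ± 0.40) are uncertain for that reason.

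**Figure D3:**
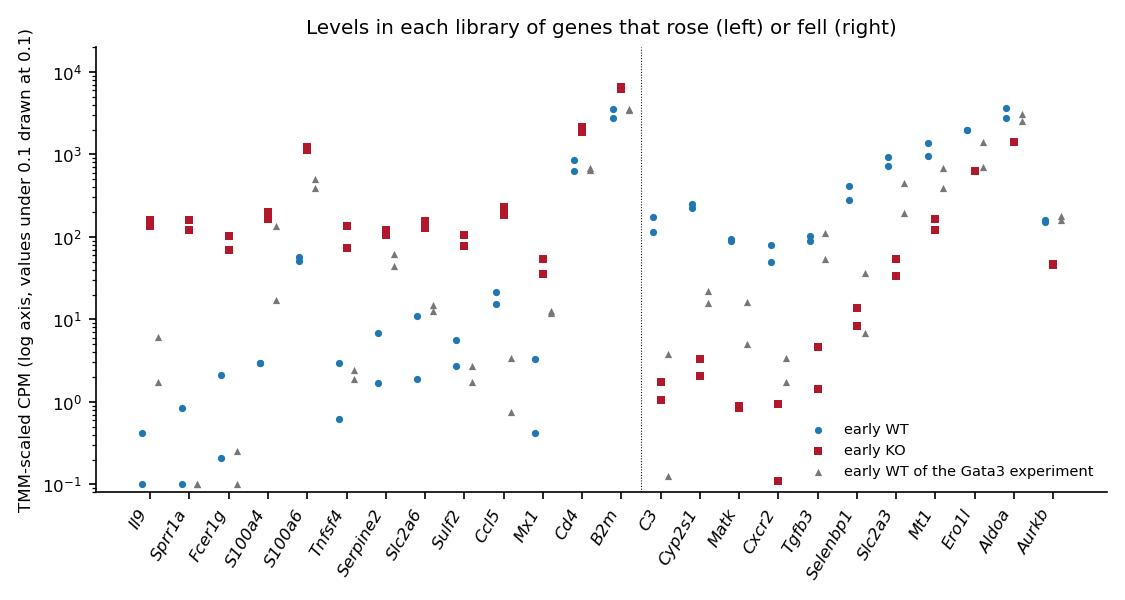
TMM-scaled CPM on a log axis in each library of the 2 early groups and of the early WT group of the Gata3 experiment, for 13 genes that rose (left of the dotted line) and 11 that fell. Circles are early WT, squares early KO and triangles the Gata3-experiment WT; for C3, Cyp2s1, Cxcr2 and Selenbp1 the triangles lie nearer the KO squares than the WT circles.

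Abundant stable genes were also named. Among stable rises of high level, Ccnd2, the D-type cyclin that drives exit from G1, went from 483 and 601 to 2048 and 1578 CPM (1.74 ± 0.19, adjusted p = 0.000323), and Cd4, the co-receptor for MHC class II, from 856 and 629 to 2139 and 1876 CPM (1.44 ± 0.18). Shisa5, a p53-responsive membrane protein of the endoplasmic reticulum, rose from 825 and 513 to 1734 and 1826 CPM, Mbnl1, a splicing regulator, from 769 and 739 to 1530.4 and 1521 CPM, and Ly6e, an interferon-responsive surface protein, from 1110.4 and 777 to 1959.7 and 1840.1 CPM. Among stable falls of high level, the zinc-binding metallothionein gene Mt1 went from 1357 and 950.0 to 119.9 and 163 CPM (-3.03 ± 0.34, adjusted p = 0.000409). P4hb, the protein disulfide isomerase, fell from 985 and 959.8 to 514 and 557 CPM (-0.86 ± 0.15), and Tubb5, a beta-tubulin, from 1218 and 1047 to 631 and 722 CPM (-0.74 ± 0.15). Both KO libraries lay outside the WT range for all of these genes, which the rule for stable genes requires.

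Cytokine genes of T cells rose in 11 of 23 tested members and none fell, with a median log2 fold change of 1.49 against 0.03 over all genes. After background subtraction 14 rose and 1 fell. Il13, which drives mucus production, was at 7.54 and 5.87 CPM in WT and 182 and 119 CPM in KO (4.48 ± 0.29, adjusted p = 2.12e-05). Il10, which dampens inflammation, was at 117 and 125 CPM in WT and 334 and 347 in KO (1.49 ± 0.16), and Penk, which encodes enkephalin peptides, at 59.7 and 47.4 CPM in WT and 650.4 and 785 in KO (3.74 ± 0.21). Areg, an epidermal growth factor receptor ligand, had 2 WT reads and 10.1 and 17.3 CPM in KO. Groups did not overlap for these genes. The KO libraries nonetheless lay below the early WT libraries of the Gata3 experiment, which had 214 and 210.3 CPM of Il13, 1427 and 1760.2 of Il10, 1460.4 and 1818 of Penk and 129 and 211 of Areg. Against that control the log2 fold changes were -0.50 ± 0.21 for Il13, -2.22 ± 0.18 for Il10, -1.19 ± 0.20 for Penk and -3.63 ± 0.35 for Areg. Of the 23 members, 10 lay above and 13 below those libraries in KO, and Il9 was the 1 stable member. Il2, the T cell growth factor, had 3 WT reads and 16.9 and 4.52 CPM in KO, and Il22, which acts on epithelium, had no WT read; set against the floor, 3 counts over both libraries, its KO level was at least 20.5-fold higher. Lif (249 and 523 CPM in WT, 411 and 243 in KO) and Mif (811 and 520.1 CPM in WT, 417 and 373 in KO) were not called. Ifng and Tbx21, the Th1 cytokine and its regulator, were below the filter in all 4 libraries, at most 4.19 CPM.

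Chemokine ligand genes rose in 6 of 12 tested members and fell in 1. Ccl22, a ligand of Ccr4 that attracts Th2 and regulatory T cells, was at 49.8 and 54.1 CPM in WT and 262 and 218 CPM in KO (2.21 ± 0.18, adjusted p = 9.34e-05). Ccl5, a chemokine made by effector T cells, was at 21.4 and 15.5 CPM in WT and 233 and 183 in KO (3.49 ± 0.32). Both were stable, stood at no more than 3.39 CPM in the Gata3-experiment WT, and were also called in late KO (2.56 ± 0.18 and 3.92 ± 0.33). Ccl17, the other Ccr4 ligand, had 1 WT read and 9.70 and 4.30 CPM in KO (67.5 (95% counting interval 11.9 to 2687)), and Cxcl3 had no WT read and was at least 5.29-fold higher. Against the Gata3-experiment WT, Cxcl3 was lower in KO (log2 fold change -3.98). Of the 12 members, 7 lay above and 5 below those libraries in KO. Ccl24, which attracts eosinophils, had 1.26 and 2.72 CPM in WT and no KO read. Among 16 chemokine and trafficking receptors, 3 rose and 3 fell, beside 11% and 10.1% of all genes. Ccr2, the monocyte chemokine receptor, fell from 40.2 and 37.9 to 6.67 and 7.72 CPM (-2.44 ± 0.24, adjusted p = 0.000218). Ccr4 itself did not separate the groups, at 406 and 348 CPM in WT and 460.4 and 325 CPM in KO (0.06 ± 0.20).

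Of 30 cytokine receptor genes tested, 5 rose and 2 fell, near the shares over all genes (11% and 10.1%). Il2rg, the common gamma chain shared by the receptors of IL-2, IL-4, IL-7 and IL-9, was at 432 and 388 CPM in WT and 1116 and 1131 CPM in KO (1.45 ± 0.15, adjusted p = 0.000292), with the Gata3-experiment WT between at 743 and 770.5 CPM. Il12rb2, the signalling chain of the IL-12 receptor on Th1 cells, rose from 84.6 and 95.4 to 316 and 206 CPM (1.53 ± 0.26), and Il1r1, the IL-1 receptor, from 2.93 and 7.96 to 23.2 and 26.7 CPM (2.19 ± 0.50). Il2ra, the IL-2 receptor alpha chain, rose by less (0.48 ± 0.13; 3763 and 3967 to 5263 and 5492 CPM), and that call was lost without any 1 of the 4 early libraries (adjusted p up to 0.136) and after background subtraction. Il4ra, the receptor chain that receives the Th2-inducing signal, stood at 2381 and 1790.1 CPM in WT and 2052 and 2278 CPM in KO and was not called (0.05 ± 0.18). Among 20 JAK, STAT and SOCS genes, which carry cytokine signals to the nucleus, 4 rose and 2 fell. After background subtraction 3 of them rose and 4 fell. Stat5b, which transmits IL-2, fell from 266 and 290.2 to 88.8 and 114 CPM (-1.46 ± 0.21, adjusted p = 0.00144). Stat6, which transmits IL-4, was at 158 and 189 CPM in WT and 101 and 112 CPM in KO (-0.70 ± 0.19, adjusted p = 0.0258), and this call was lost without KO replicate 1 or WT replicate 2, or without either late KO library (adjusted p up to 0.0738).

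The tumour necrosis factor (TNF) superfamily rose in 9 of 24 tested members and fell in 1. Tnfsf4, the OX40 ligand that sustains T cell responses, was at 0.628 and 2.93 CPM in WT and 134 and 73.5 CPM in KO (5.86 ± 0.61, adjusted p = 0.000292). Tnfsf13b, the B cell survival factor BAFF, rose from 11.1 and 13 to 88.8 and 73.2 CPM (2.75 ± 0.29). Tnfsf10, the death ligand TRAIL, rose from 2.93 and 24.7 to 149 and 151 CPM (3.44 ± 0.61) although its WT libraries differed by more than 8-fold, and the death receptor gene Fas from 3.14 and 3.14 to 23.7 and 34.7 CPM (3.21 ± 0.47). These 4 were stable. Tnfsf8, the CD30 ligand, rose from 12.4 and 11.9 to 88.7 and 73.8 CPM but not above the Gata3-experiment WT (82 and 102 CPM). The receptors 4-1BB (Tnfrsf9; 1182 and 904 CPM in WT, 1215 and 1444 in KO) and OX40 (Tnfrsf4; 407 and 436 CPM in WT, 234 and 355 in KO) were not called.

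T cell transcription factor genes mostly did not pass the test: 7 of 48 rose and 5 fell, near the share over all genes. Zeb2, a transcriptional repressor expressed in effector T cells, rose from 1.88 and 9.22 to 83.3 and 62.5 CPM (3.71 ± 0.49, adjusted p = 0.000888), and the ETS factor gene Fli1 from 100.1 and 105 to 229.7 and 185 CPM (1.02 ± 0.18). Irf8, a factor of myeloid and B cells that Th9 cells also use, fell from 86.5 and 88.4 to 15.8 and 3.31 CPM (-3.19 ± 0.58, adjusted p = 0.00436), and Ets1, the ETS factor of resting T cells, from 734 and 803 to 506 and 395 CPM (-0.77 ± 0.16). These 4 were stable. Pparg, which Th2 cells use for lipid uptake, rose from 39.6 and 30.8 to 63.7 and 112 CPM and remained below the Gata3-experiment WT (131 and 189 CPM). Irf4 (1293 and 1339 CPM in WT, 1119 and 1143 in KO), which effector T cells require, was not called. Among naive and memory T cell genes 2 of 20 rose and 2 fell, also near the share over all genes. Foxp1, a keeper of quiescence, went from 50.9 and 43.8 to 172 and 182 CPM (1.90 ± 0.23).

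Genes of the type I interferon response rose in 27 of 36 tested members and fell in 1, with a median log2 fold change of 1.86, and interferon-inducible GTPase genes rose in 11 of 15 (1.28). After background subtraction the counts were 27 and 1, and 11. Of these, 15 and 8 rises were stable, and 34 of 36 and 13 of 15 members lay above the Gata3-experiment WT in KO, as did 51.0% of all genes tested. Interferons bind cell surface receptors and switch on antiviral genes through a promoter element, the ISRE, built of paired GAAA repeats. Promoter stretches of 3 members of each list are printed here, from RefSeq on GRCm38.p6, because such repeats were searched for as the letters GAAA in 2 copies with any 2 bases between them, on both strands, shown in capitals where found (on the other strand the copies read TTTC, and overlapping matches run together). The stretches lie upstream of the listed start, are read 5′ to 3′ on the gene's strand, and a match is a description of the letters only.
Ifit1, chr19:34640750-34640829, plus strand: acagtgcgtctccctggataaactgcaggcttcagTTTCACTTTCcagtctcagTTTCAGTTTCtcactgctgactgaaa
Bst2, chr8:71537558-71537637, minus strand: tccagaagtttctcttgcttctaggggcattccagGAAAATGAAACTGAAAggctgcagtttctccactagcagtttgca
Oas3, chr5:120777690-120777769, minus strand: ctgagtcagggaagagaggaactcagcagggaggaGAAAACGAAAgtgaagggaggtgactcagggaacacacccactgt
Irgm1, chr11:48871421-48871500, minus strand: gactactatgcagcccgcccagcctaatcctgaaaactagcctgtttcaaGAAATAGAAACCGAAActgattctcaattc
Tgtp1, chr11:48992279-48992358, minus strand: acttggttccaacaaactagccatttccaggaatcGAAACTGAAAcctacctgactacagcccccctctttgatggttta
Tgtp2, chr11:49064238-49064317, minus strand: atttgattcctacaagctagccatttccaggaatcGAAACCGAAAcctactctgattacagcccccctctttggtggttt

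The letters were present in the promoters (250 bases before to 50 after the start) of 14 of the 28 interferon list members with a promoter in the table, or 50.0%, and in 9 of 10 GTPase genes, or 90.0%. Over all 32851 promoters of the table the share was 3.44%, and over the 7663 tested genes with a promoter it was 3.97%. Among the members that rose, 11 of 20 and 6 of 7 held them. Ifit1, which blocks translation of viral RNA, was at 1.26 and 10.3 CPM in WT and 132 and 118 CPM in KO (4.44 ± 0.70), and it did not pass the filter on low values without either KO library. Bst2, which tethers budding virus to the cell, was at 26 and 25.4 CPM in WT and 109.9 and 76.1 CPM in KO (1.86 ± 0.30, adjusted p = 0.00218), and Oas3, a sensor of double-stranded RNA, at 41.5 and 27.2 CPM in WT and 139 and 101 in KO (1.80 ± 0.29). Irgm1, which controls vesicles that hold pathogens, was at 15.5 and 33.5 CPM in WT and 113 and 167 in KO (2.51 ± 0.35). The calls of Bst2, Oas3 and Irgm1 were stable, which requires KO libraries above both WT libraries. Against the Gata3-experiment WT, Bst2 (0.16 ± 0.20, adjusted p = 0.529) and Irgm1 (0.07 ± 0.26, adjusted p = 0.835) were not called. Tgtp1 and Tgtp2 (1.92 ± 0.27 and 1.92 ± 0.25) are near copies of each other, as their printed stretches show, so reads may be shared between them.

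Sensors and effectors were among the rises. Ifih1, the RNA sensor MDA5, rose from 26 and 19.5 to 124 and 144 CPM (2.56 ± 0.25, adjusted p = 0.000224), Mx1, a GTPase that blocks influenza virus, from 0.419 and 3.35 to 54.1 and 35.2 CPM (4.56 ± 0.59), and Zbp1, a sensor of left-handed nucleic acid, from 11.5 and 13.8 to 75.6 and 53.5 CPM (2.35 ± 0.31). Lgals3bp, a secreted glycoprotein, rose from 73.7 and 79.6 to 523 and 355 CPM (2.52 ± 0.21), and Irf7, which amplifies the response, from 11.7 and 5.87 to 80.4 and 54 CPM (2.93 ± 0.46). For all 5 the KO libraries lay above both WT libraries and, on average, above the Gata3-experiment WT. Dhx58, a regulator of RNA sensing, was the 1 member that fell, from 61.4 and 36.9 to 15 and 10.5 CPM (-1.94 ± 0.43). Members without a call included Isg20 (154 and 94.9 CPM in WT, 154 and 152 in KO) and 2 guanylate-binding protein genes, a family with close copies, Gbp2 (44.2 and 34.4 CPM in WT, 38.8 and 21.6 in KO) and Gbp5 (7.96 and 18.7 CPM in WT, 8.44 and 14 in KO). In late cultures 4 of the 36 and 2 of the 15 members were called as rises (1.69% of all genes were). The early effect was called as higher than the late one for 8 and 1 (1.29% of all genes).

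MHC class I and II genes rose in 8 of 22 tested members and fell in 2. B2m, the light chain of MHC class I, was at 3496 and 2772 CPM in WT and 6136 and 6470.2 CPM in KO (1.01 ± 0.17, adjusted p = 0.00266), and Nlrc5, the transactivator of class I genes, rose from 59.3 and 51.6 to 168 and 260.4 CPM (1.95 ± 0.24). Cd74, the invariant chain of class II, rose from 86.3 and 75.4 to 217 and 322 CPM (1.74 ± 0.24), whereas H2-Ab1, a class II chain, fell from 404 and 218 to 64 and 68.3 CPM (-2.23 ± 0.33). The class I gene H2-K1 was not called (1819.8 and 1287 CPM in WT, 1974 and 2588 in KO). Reads of H2 genes can be split among close copies, so H2-D1, H2-K1 and H2-Ab1 are uncertain.

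Target genes of p53 rose in 17 of 27 tested members and fell in 1, with a median of 1.48, and 11 of the rises were stable. p53 is the factor that responds to DNA damage by arresting or killing cells. Mdm2, the ligase that degrades p53, rose from 279.8 and 174 to 689.7 and 814 CPM (1.73 ± 0.22, adjusted p = 0.00079). Ccng1, cyclin G1, rose from 278 and 416 to 1289.7 and 1262 CPM (1.88 ± 0.23), and Zmat3, an RNA-binding protein, from 124 and 176 to 782 and 695 CPM (2.30 ± 0.20). The cell cycle inhibitor gene Cdkn1a, p21, went from 648 and 587 to 1110.0 and 1286 CPM (0.96 ± 0.20). For Cdkn1a and Zmat3 the Gata3-experiment WT (566 and 464 and 95.7 and 147 CPM) lay near the early WT libraries and below both KO libraries. Plk2, a kinase induced by damage, rose from 4.40 and 12.8 to 27.6 and 40.5 CPM (1.98 ± 0.45), and Aen, a nuclease of apoptosis, from 33.3 and 18.4 to 72.2 and 123 CPM (1.91 ± 0.38). Btg2 (63.5 and 49.9 CPM in WT, 77.4 and 62.2 in KO) and Apaf1 (210.1 and 185 CPM in WT, 150.2 and 282 in KO) were not called. In late KO against WT 3 of the 27 targets rose, beside 1.69% of all genes. Mdm2 (1.52 ± 0.22) was among them, while Zmat3 and Ccng1 had 0.15 ± 0.19 and 0.38 ± 0.22.

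Cell death regulators rose in 7 of 26 tested members and fell in 1, and 7 rose and 3 fell after background subtraction. Bcl2l1, which encodes the survival protein Bcl-xL, rose from 42.3 and 29.1 to 239.7 and 238 CPM (2.74 ± 0.23, adjusted p = 9.65e-05), and against the Gata3-experiment WT it was not called (0.17 ± 0.18, adjusted p = 0.45). The inflammatory caspase genes Casp1 (13 and 22.2 to 107 and 91.8 CPM, 2.49 ± 0.32) and Casp4 (32.7 and 26.4 to 93 and 89.4 CPM, 1.63 ± 0.25) rose, and so did Gsdmd (26.4 and 32.3 to 96.7 and 123 CPM, 1.90 ± 0.28), the pore-forming protein that they cleave. These 4 were stable. Bcl2l11, the death protein Bim, fell from 118 and 149 to 77.9 and 56.8 CPM (-0.99 ± 0.23), a call lost without KO replicate 2 (adjusted p = 0.0539). Bcl2 (1109.8 and 1052 CPM in WT, 946 and 763 in KO) and Mcl1 (865 and 889 CPM in WT, 694 and 665 in KO) were not called.

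Glycolysis genes fell in 17 of 21 tested members and none rose, with a median of -1.05, and other hypoxia-induced genes fell in 20 of 30 and rose in 2, with a median of -1.54. The counts were the same after background subtraction, and 8 and 13 of the falls were stable. When oxygen is short, or when activated T cells grow, the factor Hif1a is stabilised and binds short elements with the letters ACGTG upstream of glycolytic genes. Promoter stretches of 3 members of each list follow, in the same form, with ACGTG in capitals on either strand.
Pgk1, chrX:106186913-106186992, plus strand: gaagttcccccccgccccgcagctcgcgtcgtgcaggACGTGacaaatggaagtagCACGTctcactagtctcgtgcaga
Pgm2, chr5:64092840-64092919, plus strand: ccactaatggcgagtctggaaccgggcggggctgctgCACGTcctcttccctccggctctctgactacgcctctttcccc
Aldoa, chr7:126799338-126799417, minus strand: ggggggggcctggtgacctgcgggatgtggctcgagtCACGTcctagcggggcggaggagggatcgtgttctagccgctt
Egln1, chr8:124949280-124949359, minus strand: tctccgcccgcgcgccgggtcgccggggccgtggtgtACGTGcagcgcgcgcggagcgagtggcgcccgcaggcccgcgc
Egln3, chr12:54204045-54204124, minus strand: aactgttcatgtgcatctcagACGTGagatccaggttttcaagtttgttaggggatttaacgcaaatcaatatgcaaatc
Mxi1, chr19:53329310-53329389, plus strand: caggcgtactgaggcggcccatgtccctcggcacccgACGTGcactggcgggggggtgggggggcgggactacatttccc

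ACGTG was present in the promoters of 15 of 23 glycolysis genes (65.2%) and 18 of 24 other hypoxia-induced genes (75%), and in 30.2% of the tested genes with a promoter and 19.6% of all promoters. Of the members that fell, 12 of 16 and 13 of 16 held it. Pgk1, the phosphoglycerate kinase, was at 3562 and 2524 CPM in WT and 919 and 1043 CPM in KO (-1.63 ± 0.19, adjusted p = 0.000452), and Pgm2, a phosphoglucomutase, at 530.5 and 362 CPM in WT and 93.3 and 113 in KO (-2.11 ± 0.25). Aldoa, an aldolase, fell from 3646 and 2768 to 1417 and 1408 CPM (-1.18 ± 0.19). Egln1 and Egln3, the oxygen sensors that mark Hif1a for degradation, went from 739.5 and 824 to 214 and 172 and from 758 and 728 to 262 and 131 CPM (-2.02 ± 0.22 and -1.92 ± 0.28), and Mxi1, an antagonist of Myc, from 103 and 110.2 to 25 and 28.5 CPM (-1.99 ± 0.24). KO libraries lay below both WT libraries for all 6.

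The glucose transporter gene Slc2a3 (GLUT3) went from 930.3 and 720.1 to 54.6 and 33.2 CPM (-4.23 ± 0.29, adjusted p = 2.81e-05), and Slc2a1 (GLUT1) from 341 and 438 to 157 and 97.6 CPM (-1.61 ± 0.29). Pfkp, the phosphofructokinase, fell from 1289 and 976 to 468 and 432 CPM (-1.33 ± 0.19). Ldha, the lactate dehydrogenase, fell by less (-0.54 ± 0.16; 2035 and 1675 to 1193 and 1361 CPM), a call lost without KO replicate 1, WT replicate 1 or either late KO library (adjusted p up to 0.141). Eno1 (1784 and 1371 CPM in WT, 1111 and 1316 in KO) and Hk2 (313 and 268 CPM in WT, 229 and 271 in KO) were not called. Pdk1, which keeps pyruvate out of mitochondria, fell from 250.5 and 211 to 59.5 and 54 CPM (-2.02 ± 0.22), P4ha2, a collagen prolyl hydroxylase, from 89.6 and 100.2 to 9.17 and 13.1 CPM (-3.09 ± 0.50), and Ero1l, an oxidase of the endoplasmic reticulum, from 1952 and 1993 to 621 and 634 CPM (-1.65 ± 0.18). Hif1a itself fell from 928 and 978 to 499 and 605 CPM (-0.79 ± 0.15), and its paralogue Epas1 rose from 955 and 768 to 1801 and 1726 CPM (1.03 ± 0.17). Groups did not overlap for these genes. Levels in the Gata3-experiment WT were mixed: Slc2a3 (443 and 197 CPM) and Pdk1 (108 and 73.8) lay between the groups, Aldoa (3113 and 2543) near WT, and Pgk1 (796 and 574), Egln1 (57.6 and 27.8) and Aldoc (70.6 and 21; 103 and 126 in KO) below KO. In late cultures no glycolysis gene was called (57 falls over all genes, 0.524%) and 1 hypoxia gene fell. By the stage test 3 and 6 members were called as lower early than late (1.95% of all genes). Oxidative phosphorylation genes rose in 3 of 33 and fell in none, near the share over all genes, with Atp5b at 1571 and 1578 CPM in WT and 2120.4 and 2035 in KO.

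**Figure D4:**
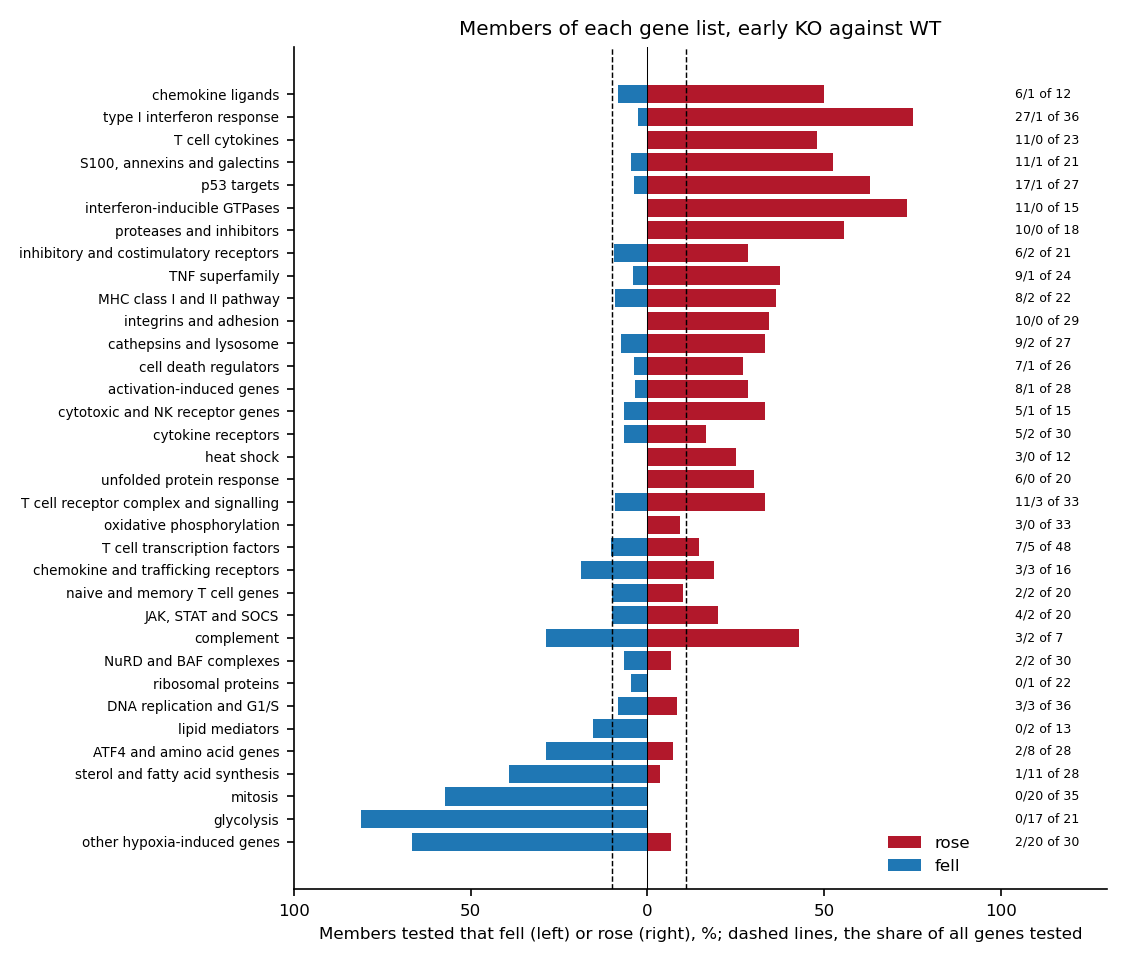
Share of tested members of each gene list that rose (right, red) or fell (left, blue) in early KO against WT, with the counts at the right edge (rose/fell of tested) and dashed lines at the shares over all genes, 11% and 10.1%. Interferon and p53 lists extend to the right and glycolysis, other hypoxia-induced genes and mitosis to the left.

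Mitosis genes fell in 20 of 35 tested members and none rose (median -0.91), while genes of DNA replication and G1/S had 3 rises and 3 falls in 36 (median -0.09). Over all genes 11% rose and 10.1% fell. After background subtraction the replication list had 2 rises and 7 falls (median -0.21). Of the mitotic falls 11 were stable, and 30 of the 35 members lay below the Gata3-experiment WT in KO, as did 48.5% of all genes tested. Of the 36 replication genes, 28 lay below it in KO. By this count the contrast between the 2 lists depends on which WT libraries serve as control. Aurkb, the kinase that corrects chromosome attachment, fell from 158 and 151 to 46.3 and 45.4 CPM (-1.75 ± 0.19, adjusted p = 0.000323), Ccnb2, a mitotic cyclin, from 269 and 316 to 117 and 114 CPM (-1.34 ± 0.17), and Ttk, a kinase of the spindle checkpoint, from 49.8 and 56.6 to 20.3 and 11.6 CPM (-1.74 ± 0.32). Cdc25b, the phosphatase that starts mitosis, went from 316 and 228 to 64.3 and 92.3 CPM (-1.80 ± 0.25). Late KO cultures had 15 falls in this list, where 0.524% of all genes fell late. No member differed between stages by the test of that difference. That test called 3.24% of all genes and depended on single late libraries, so the lack of a call says little. Replication genes Mcm5 (532 and 369 CPM in WT, 392 and 425 in KO) and Rrm2 (311 and 405 CPM in WT, 329.7 and 382 in KO) were not called, and Cdt1, which licenses origins, fell from 109 and 84 to 41.1 and 51.7 CPM (-1.06 ± 0.25). Rbl2, a retinoblastoma-family repressor of the cell cycle, rose from 142 and 162 to 661 and 571 CPM (2.02 ± 0.17, adjusted p = 9.65e-05).

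Biosynthetic and stress lists moved in different directions. Sterol and fatty acid synthesis genes fell in 11 of 28 and rose in 1. Scd2, a fatty acid desaturase, fell from 859 and 1004 to 378 and 307 CPM (-1.44 ± 0.16, adjusted p = 0.000433), Fads2, another desaturase, from 28.1 and 23.7 to 3.54 and 1.76 CPM (-3.28 ± 0.52), and Insig1, the sterol sensor partner, from 184 and 197 to 105 and 96.6 CPM (-0.92 ± 0.17). Cyp51 (418 and 378 CPM in WT, 332 and 409 in KO) was not called. ATF4 and amino acid genes fell in 8 of 28 and rose in 2; Slc7a5, the leucine transporter, fell from 86.7 and 94.3 to 45.6 and 36.8 CPM (-1.13 ± 0.24), and Sesn2, a leucine sensor that p53 also induces, rose from 7.12 and 4.82 to 48.7 and 20.5 CPM (2.53 ± 0.45). Genes of the unfolded protein response rose in 6 of 20, among them Edem1 (236 and 190.3 to 491 and 536 CPM, 1.27 ± 0.17), which helps to degrade misfolded glycoproteins, while the chaperone gene Hspa5 (394 and 322 CPM in WT, 480.4 and 411 in KO) was not called. Of these rises 2 were stable, and in KO 5 of the 20 members lay above the Gata3-experiment WT and 15 below. Heat shock genes rose in 3 of 12 and ribosomal protein genes fell in 1 of 22, and the median of the latter was -0.09. After background subtraction, heat shock genes had 1 rise, ribosomal protein genes 2 falls, and ATF4 and amino acid genes 2 rises and 10 falls.

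Lysosomal, calcium-binding and protease genes rose more often than they fell. S100, annexin and galectin genes rose in 11 of 21 and fell in 1 (median 1.49). Of these rises 5 were stable, and in KO 9 of the 21 members lay above the Gata3-experiment WT and 12 below. S100a6, a calcium-binding protein of migrating cells, was at 57 and 50.9 CPM in WT and 1238 and 1138 CPM in KO (4.46 ± 0.19, adjusted p = 2.42e-06), S100a4 at 2.93 and 2.93 CPM in WT and 165 and 202 in KO (5.96 ± 0.39), and S100a11 at 138 and 136 CPM in WT and 599 and 575 in KO (2.10 ± 0.23). The KO levels of S100a6 and S100a11 were above those of the Gata3-experiment WT (394 and 501 and 105 and 109.6 CPM), and S100a10 (237 and 310.1 CPM in KO) was below (627 and 1063 CPM). Anxa2, an annexin of the cell membrane, fell from 505 and 420.4 to 239.7 and 235 CPM (-0.96 ± 0.20). Cathepsin and lysosome genes rose in 9 of 27 and fell in 2, and in KO 13 members lay above the Gata3-experiment WT and 14 below. Cst3, the protease inhibitor cystatin C, rose from 163 and 182 to 533 and 449 CPM (1.51 ± 0.18), and Ctsh, a cathepsin, from 2.93 and 5.03 to 23.1 and 42.2 CPM (3.03 ± 0.41). In late KO 6 members of this list rose and none fell, beside 1.69% and 0.524% of all genes. Proteases and their inhibitors rose in 10 of 18, including Mmp10, a matrix metalloproteinase (3.77 and 0.21 to 75.4 and 64.6 CPM, 5.13 ± 0.69), and Serpinb9, which inhibits granzyme B (6.70 and 15.7 to 87.4 and 43.7 CPM, 2.55 ± 0.50).

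Surface molecules of T cell interaction changed in both directions. Inhibitory and costimulatory receptor genes rose in 6 of 21 and fell in 2. Cd274, which encodes the checkpoint ligand PD-L1, was at 118 and 99.3 CPM in WT and 449 and 323 CPM in KO (1.83 ± 0.21, adjusted p = 0.00044), its relative Pdcd1lg2 (PD-L2) at 11.7 and 23.9 CPM in WT and 98.9 and 77.8 in KO (2.31 ± 0.34), and Havcr2, the inhibitory receptor Tim-3, at 7.96 and 11.7 CPM in WT and 62.7 and 44.9 in KO (2.45 ± 0.28). Ctla4, which competes for the costimulator Cd80, fell from 492 and 357 to 172 and 186 CPM (-1.25 ± 0.17, adjusted p = 0.00106), and Cd80 rose from 1.68 and 8.17 to 44.5 and 45.3 CPM (3.19 ± 0.61). These 5 were stable. Icos (1195 and 1149.9 CPM in WT, 1436 and 1333 in KO) and Cd28 (509 and 552 CPM in WT, 498 and 401 in KO), the main costimulatory receptors, were not called. Integrin and adhesion genes rose in 10 of 29 and none fell, and 7 rose after background subtraction. Cd96, an adhesion receptor of T and NK cells, went from 22.8 and 22.8 to 100.3 and 102 CPM (2.15 ± 0.26) and Icam1, the integrin ligand, from 38.3 and 28.3 to 124 and 74.7 CPM (1.58 ± 0.31).

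Genes of the T cell receptor complex and its signalling rose in 11 of 33 and fell in 3, and 8 rose and 5 fell after background subtraction. Ubash3b, a phosphatase that dampens receptor signals, rose from 32 and 32.5 to 122 and 71.7 CPM (1.59 ± 0.28), and Cd5, another damper, from 100.3 and 89.1 to 180.3 and 191 CPM (0.97 ± 0.20). Malt1, the scaffold that links the receptor to NF-kappaB, fell from 200.0 and 293 to 83.7 and 132 CPM (-1.19 ± 0.25, adjusted p = 0.0078). Cd3e (641 and 627 CPM in WT, 748 and 571 in KO) and Lck (188 and 144 CPM in WT, 151 and 125 in KO) were not called. Activation-induced genes rose in 8 of 28 and fell in 1, and 6 rose and 2 fell after background subtraction. Cd69, an early activation marker, went from 13.2 and 13.8 to 72.7 and 97.2 CPM (2.65 ± 0.28), and Nfkbia, the inhibitor and target of NF-kappaB, from 82.1 and 56 to 177 and 218 CPM (1.52 ± 0.26). Ier3 fell from 73.5 and 99.3 to 34.3 and 36.7 CPM (-1.28 ± 0.20). Cytotoxic and NK receptor genes rose in 5 of 15 and fell in 1; Cd244, an NK receptor, was at 4.19 and 3.77 CPM in WT and 17.4 and 26.1 in KO (2.45 ± 0.51) and Gzmc, a granzyme, at 19.7 and 5.45 CPM in WT and 77.4 and 87.6 in KO (2.71 ± 0.50), whereas Gzmb was not called (601 and 695 CPM in WT, 728 and 611 in KO). Complement genes rose in 3 and fell in 2 of 7. Cd55, which protects cells from complement, rose from 19.1 and 11.7 to 189 and 165 CPM (3.52 ± 0.32, adjusted p = 0.000147), and C3, the central complement protein, fell from 174 and 114 to 1.04 and 1.76 CPM (-6.67 ± 0.42). Lipid mediator genes fell in 2 of 13. NuRD and BAF genes, whose products work with Bcl11b, rose in 2 and fell in 2 of 30, beside 11% and 10.1% of all genes. After background subtraction 0 rose and 4 fell. Smarcd1 went from 44.4 and 26.4 to 11.3 and 4.41 CPM (-2.17 ± 0.46), and Chd4 was at 250.5 and 308 CPM in WT and 311 and 323 in KO without a call.

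For 279 genes (2.57% of those tested) the 95% interval of the log2 fold change lay within 0.5 of 0. Among the most abundant of these were Eef1a1, a translation elongation factor (2682 and 3060.1 CPM in WT, 2740.1 and 2685 in KO, interval -0.38 to 0.22), the ribosomal protein genes Rpl4 (interval -0.36 to 0.23) and Rps4x (-0.34 to 0.34), and Gnas, a G protein subunit (-0.23 to 0.40). Il4ra was also in this set (-0.36 to 0.46). For most genes that were not called, the interval is wider and a difference cannot be set aside.

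The early effect was set against the late effect in the same fit, which shares no library between the 2 comparisons. In late cultures 184 genes rose (1.69%) and 57 fell (0.524%), 2.22% in all. Of the 1194 early rises 109 also rose late, 9.13% of the early and 59.2% of the late rises, and of the 1097 early falls 46 also fell late (4.19% and 80.7%). The difference between stages was itself called for 140 genes with a higher (1.29%) and 212 with a lower early effect (1.95%), 3.24% in all, and for 109 and 132 after background subtraction. These calls rest on the late libraries: without late KO replicate 1 or 2 the counts were 13 and 33, or 9 and 31, and without late WT replicate 1 or 2 they were 14 and 27, or 19 and 43. Without early KO replicate 1 they were 88 and 258, and without early WT replicate 2 they were 325 and 372. Il13 had an early effect of 4.48 ± 0.29 and a late effect of 0.74 ± 0.22, a difference of 3.74 ± 0.36 (adjusted p = 0.00169). Rbl2 had 2.02 ± 0.17 early and -0.04 ± 0.16 late (difference 2.06 ± 0.23, adjusted p = 0.00287). C3 fell early and rose late (2.34 ± 0.34), and Slc2a3 fell early and had 0.05 ± 0.25 late (differences -9.01 ± 0.54 and -4.29 ± 0.37). Nrp2, a semaphorin receptor, fell early (147 and 88 to 15.4 and 23.3 CPM, -2.60 ± 0.36) and rose late (2.02 ± 0.36). Because the 2 early WT libraries stand apart, a stage difference and a trait of those libraries cannot be told apart.

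**Figure D5:**
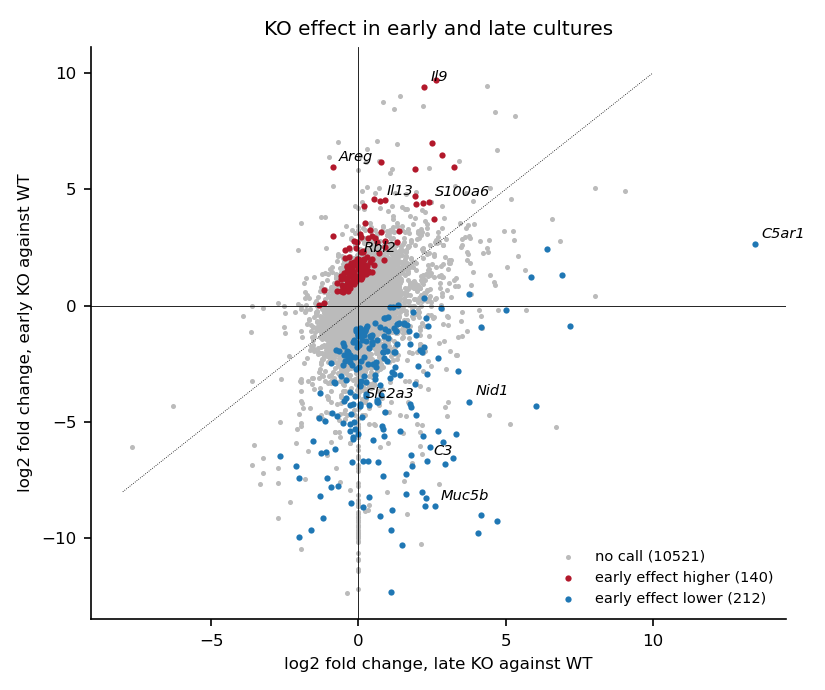
Log2 fold change of KO against WT in early cultures (vertical axis) against that in late cultures (horizontal axis), 1 point per gene tested. Red and blue points are the 140 genes with a higher and the 212 with a lower early effect by the test of the difference, and the dotted line marks equal effects.

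In the early cultures of the Gata3 experiment, a separate set of libraries, 1481 of 10601 genes rose (14%) and 1776 fell (16.8%) with Gata3 KO. Over the 9986 genes tested in both experiments, 253 of the 1122 early Bcl11b rises also rose with Gata3 KO (22.5%) and 273 fell (24.3%). Of the 891 falls 195 also fell (21.9%) and 109 rose (12.2%). The interferon list had 35 members that rose with Gata3 KO, Mx1 by 2.20 ± 0.16 and Ifih1 by 2.90 ± 0.19. Of the T cell cytokine list, 4 members rose and 14 fell with Gata3 KO: Il13 (-6.93 ± 0.23), Il10 (-3.54 ± 0.19) and Penk (-7.14 ± 0.25) fell with Gata3 KO and rose with Bcl11b KO. With Gata3 KO 2 glycolysis genes fell and none rose, and 3 p53 targets rose and 6 fell. The differences between the 2 experiments were not tested.

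Bcl11b binding, measured in late WT cells with 1 library, was described at these genes. A Bcl11b peak lay within 1 kb of the start of 32.8% of the genes that rose, 26.2% of those that fell and 30.9% of all genes tested. For stable genes the shares were 33.9% and 39.3%. The stable rule sets a minimum level, and the median level in the higher group was 107 CPM for stable rises and 94.6 for stable falls. Over all genes tested it was 45.2 CPM. GATA3 peaks by the same distance rule lay at 20.4% of stable rises, 25% of stable falls and 16.3% of all genes tested. The part of gene level in these shares was not tested. Genes with such a peak included Il13, Il10, Ccnd2, Zeb2, Cd274 and Cd55 among those that rose, and Bcl11b itself, Irf8, Slc2a3, Ero1l, Matk and Ctla4 among those that fell. Il9, Ccl5, Ccl22, C3 and Stat5b had none by this rule.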

How the data were processed

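RNA of 10 ng per sample was amplified and sequenced, per the labels, and each of the 16 RNA tables holds 29257 RefSeq transcripts of 22878 gene symbols. The authors deposited a raw read count for each transcript. Their deposited RPKM divides it by transcript length and by a library total that also holds reads outside genes. Per the submitters' processing notes, the tools were Bowtie, TopHat2 2.0.13, MACS 1.4.2, Novoalign and CASAVA 2.18, with the build mm10. The counting tool, its use of strand and its treatment of near-identical genes are, in the sources used here, not given. In the peak lists the fold is the authors' ratio per peak and the score is their deposited peak value, per the file headers; neither was used to compare samples. Peaks that overlapped an input peak were left out (2197 of 17459 for Bcl11b), and a peak was assigned to a gene whose start, in the authors' lists, lay within 1 kb.

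Per gene the transcript with most reads over the 16 RNA libraries was kept, and genes were tested that reached an RPKM of 1 in 2 or more of the 8 Bcl11b-experiment libraries. Counts went into edgeR 4.0.16 (R 4.3.3), with TMM scaling, 1 quasi-likelihood fit of the 8 libraries in 4 groups without pairing, and Benjamini-Hochberg adjustment. The Gata3 experiment had its own fit. The KO values against Gata3-experiment WT come from a fit of all 16 libraries. The common biological coefficient of variation was 0.281. The code was tested on simulated counts. No set test was run: lists are described by counts and medians. Other settings used DESeq2 1.42.0 and limma 3.58.1. Tables and figures used Python 3.11.15, numpy 2.4.6, pandas 2.3.3, scipy 1.17.1 and matplotlib 3.10.9. Counting intervals (exact, 95%) and the floor of 3 counts cover counting error only.

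The comparison, the gene lists and the motifs were chosen with earlier results of these data known. The genes named follow a rule: Bcl11b and Gata3, the largest and the most abundant stable rises and falls without unnamed gene models and receptor segments, up to 5 called members per list and direction with the smallest p, up to 3 uncalled members of highest level, the 8 smallest p-values per direction for the stage difference, and the 10 most abundant genes with a narrow interval. Further list members (such as Il2, Il22, Irf7, Cd5, Plk2, Ldha and Hif1a) were named after their values were seen, and some genes that the rule names are not reported here.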

Additional observations from a re-analysis of the deposited data

Results flagged for a closer look

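The genes named above are given here where the KO effect differed between early and late cultures by a test of that difference, an interaction contrast in edgeR's quasi-likelihood fit, at an adjusted p under 0.05. The values in parentheses are the early minus the late log2 fold change, and the 2 comparisons share no library. The early effect was higher for Il9 (7.15), Areg (6.81), Tnip3 (5.42), Serpina3g (4.49), Tnfsf4 (3.94) and Il13 (3.74). Next came Mx1 (3.66), Irf7 (2.83), Serpine2 (2.81), Tnfsf8 (2.77), S100a4 (2.70) and Crip2 (2.39). Smaller excesses were those of Sulf2 (2.22), Zbp1 (2.19), Zmat3 (2.16), Bcl2l1 (2.11), S100a6 (2.07) and Rbl2 (2.06). The same sign was found for Oas3 (2.02), Gsdmd (1.73), Lgals3bp (1.63), Ccng1 (1.49), Gzmb (1.40) and Cd5 (1.22). Further genes were Ccnd2 (1.19), Penk (1.19), Il10 (1.17) and Il2rg (1.00).

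The early effect was lower for Mpo (-9.75), C3 (-9.01), Zbtb7c (-8.83), Aldh3b2 (-8.24), Ccl24 (-8.15) and Xist (-8.08). After these came Matk (-6.52), Aplp1 (-5.49), Mboat2 (-5.18), Cxcr2 (-4.76), Nrp2 (-4.62) and Stfa2 (-4.29). A lower early effect was also called for Slc2a3 (-4.29), Cd244 (-3.95), Selenbp1 (-3.86), Cyp2s1 (-3.78), Dhx58 (-2.90) and Aldoc (-2.77). Of smaller size were Mt1 (-2.45), Ier3 (-2.15), Ero1l (-2.13), Bcl2l11 (-1.90), Mxi1 (-1.64) and Pgm2 (-1.63). The remaining genes were Stat5b (-1.32), Ctla4 (-1.32), Anxa2 (-1.23) and P4hb (-1.17). The early WT libraries, which stand apart, enter each of these values. Over all genes the test called 140 and 212 effects as higher and lower (1.29% and 1.95%). Without any 1 late library at most 19 and 43 were called. The early fall of Xist, with 47 reads over both WT libraries and 2 over both KO libraries, was not called after background subtraction.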

How the results depend on the processing

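Over 185 named genes and 3852 values under other settings, 3491 kept direction and side of the threshold, 142 kept direction and lost the call, 65 kept direction and gained one and 154 changed sign, 74 of these with no call in either setting. Where 1 library was left out, the lone library of its group is assumed to vary like the other groups. In these settings 765 to 1225 genes rose and 779 to 1193 fell early, and the stage difference was called as higher for 9 to 325 genes and as lower for 27 to 372. The counts of early rises and falls were 452 and 598 in a fit of the 4 early libraries, 2166 and 1960 in a fit of all 16 and 1776 and 1820 without a filter on low values, with a shift of -0.72 in the median of all genes. With the early WT libraries of the Gata3 experiment as control they were 3418 and 3220. Limma gave 6570 and 338 on log2(RPKM + 1) and 6441 and 381 on log2(RPKM + 0.1), where the median of all genes moved by 0.83 and 1.11. Scaled to 1 RPKM sum, a setting chosen after seeing the data, log2(RPKM + 1) gave 930 and 1182. For the stage difference, higher and lower early effects numbered 364 and 538 with DESeq2, 863 and 673 in the fit of all 16 libraries, 262 and 267 without a filter, 109 and 132 after background subtraction, and 5826 and 261 and then 5373 and 250 on the 2 RPKM scales. With the replicate block, which pairs libraries by number, early counts were 1065 and 972 and stage differences 80 and 126; the labels tie no number to a shared source. Deviations of same-numbered KO and WT libraries correlated at -0.029 early and 0.258 late, over 1 contrast of replicates each. The early counts stayed within 1.5 times with DESeq2 (1432 and 1420), RLE scaling (1144 and 1175), a minimum RPKM of 5 (851 and 884), background subtraction (1101 and 1044) and the longest transcript per gene (1185 and 1084). Beyond these shifts of the median, the cause was not tested. Depth limits small differences: the early WT libraries had the fewest gene reads of the 16, and for the early comparison 28% of simulated 2-fold and 84% of 4-fold changes were recovered.

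The log2 fold changes that turned sign are given by setting. With the Gata3-experiment WT as control they were Aldoc 1.33, Areg -3.63, Bcl2 1.11, Bcl2l11 0.87, Cxcl3 -3.98, Cyp51 0.54, Ddx3y 8.42, Egln1 2.18, Gata3 -0.79, Gbp2 0.081, Gbp5 2.26, Gzmb -3.76, Hk2 1.05, Hspa5 -1.52, Il10 -2.22, Il13 -0.50, Il4 -2.44, Irf4 2.26, Mcl1 1.53, Mcm5 0.28, Mpo 4.03, Nrp2 4.40, Penk -1.19, Pgk1 0.52, Pparg -0.86, Rpl4 1.38, Rps4x 1.94, S100a10 -1.62, Tnfrsf9 -0.81 and Tnfsf8 -0.17. On log2(RPKM + 1) the values were Anxa2 0.19, Bcl11b 0.047, Bcl2 0.78, Bcl2l11 0.13, Cd28 0.87, Cdt1 0.081, Cyp51 1.00, Ddx3y 0.84, Eef1a1 1.07, Eno1 0.77, Ets1 0.35, Gbp2 0.57, Gbp5 0.50, Hif1a 0.34, Hk2 0.86, Insig1 0.22, Irf4 0.91, Lck 0.84, Ldha 0.61, Lif 0.91, Mcl1 0.77, Mcm5 1.00, Mif 0.43, P4hb 0.28, Rpl4 1.08, Rps4x 1.15, Rrm2 1.12, Slc7a5 0.00415, Stat6 0.40, Tnfrsf4 0.59 and Tubb5 0.40. On log2(RPKM + 0.1) turned values were Anxa2 0.19, Bcl11b 0.060, Bcl2 0.80, Bcl2l11 0.15, Cd28 0.90, Cdt1 0.091, Cyp51 1.03, Ddx3y 1.10, Eef1a1 1.07, Eno1 0.78, Ets1 0.36, Gbp2 0.70, Gbp5 0.89, Hif1a 0.35, Hk2 0.92, Insig1 0.23, Irf4 0.93, Lck 0.88, Ldha 0.61, Lif 0.95, Mcl1 0.78, Mcm5 1.03, Mif 0.43, P4hb 0.28, Rpl4 1.09, Rps4x 1.15, Rrm2 1.15, Slc7a5 0.00445, Stat6 0.44, Tnfrsf4 0.60 and Tubb5 0.40. On log2(RPKM + 1) scaled to 1 RPKM sum these were Apaf1 -0.018, Ccr4 -0.046, Cd3e -0.046, Gnas -0.00108, Gzmb -0.045 and Il4ra -0.023. With a minimum RPKM of 5 they were Apaf1 -0.00409, Ccr4 -0.077, Cd3e -0.080, Gnas -0.048, Gzmb -0.092 and Il4ra -0.080. With background subtraction the values were Ccr4 -0.064, Cd3e -0.075, Gnas -0.045, Gzmb -0.088 and Il4ra -0.074. With the fit of all 16 libraries turned values were Ddx3y 0.00283, Rps4x 0.019 and Rrm2 0.014. With the fit of the 4 early libraries these were Ccr4 -0.016, Cd3e -0.019, Gzmb -0.031 and Il4ra -0.020. With no filter on low values they were Cd28 0.00119, Cyp51 0.14, Ddx3y 0.22, Eef1a1 0.16, Hk2 0.022, Irf4 0.020, Lif 0.00436, Mcm5 0.097, Rpl4 0.17, Rps4x 0.23 and Rrm2 0.23. With the replicate block it was Rps4x 0.00143. Leaving out 1 library at a time, the ranges of genes that turned sign were Apaf1 -0.43 to 0.46, Ccr4 -0.27 to 0.25, Cd3e -0.21 to 0.20, Ddx3y -0.29 to 0.23, Gbp5 -0.74 to 0.45, Gzmb -0.14 to 0.12, Il4 -0.069 to 0.59, Il4ra -0.19 to 0.27, Isg20 -0.058 to 0.68, Lif -0.73 to 0.35, Mcm5 -0.43 to 0.14, Rpl4 -0.23 to 0.048, Rps4x -0.18 to 0.13 and Rrm2 -0.19 to 0.15.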
